A study of Mus musculus with 4 samples.

Results

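Natural killer (NK) cells without granzymes C to F were the tumour-infiltrating innate lymphocytes that carried NK transcripts and at most 1 UMI (unique molecular identifier, 1 per captured transcript) of Gzmc, Gzmd, Gzme and Gzmf together. The members were chosen by their measured UMI counts, so the genes of this rule describe the cells and support nothing. A member had 200 or more genes, 500 or more UMIs and a mitochondrial share of UMIs under 10%. It had at most 1 UMI of Cd3d, Cd3e and Cd3g and a UMI of at least 2 of the 5 genes Ncr1, Klrb1c, Klre1, Eomes and Gzma. It also had at most 1 UMI of the C1q genes (macrophages), at most 4 of S100a8 and S100a9 (neutrophils) and at most 1 of Krt8 and Krt18 (tumour cells). There were 178 such cells among 20607 kept cells, 107 in the IL-27 matrix and 71 in the control matrix.

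The cells came from OV2944-HM1 tumours, a mouse ovarian cancer line grown under the skin of B6C3F1 mice that were 6 to 8 weeks old. IL-27 mice received 100 ng of recombinant mouse interleukin 27 (IL-27) into the tumour on the day of implantation and every other day after it, and control mice received vehicle on the same days. Both groups were intact hosts with the same tumour line, and cells were taken on day 14 with magnetic beads against CD45, which marks leukocytes. The labels give 2 entries per group, but each group is 1 count matrix in which cells cannot be assigned to an entry, so n = 1 per group, no test was made and no difference has a replicate check. All intervals are 95% intervals that cover counting error only. Those of summed UMIs leave out the spread between cells of a matrix, so they are too narrow for genes that vary much from cell to cell.

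NK cells are innate lymphocytes that kill stressed or transformed cells without an antigen receptor of their own, through granules of perforin and granzymes. Their activity is set by a balance of activating receptors and of inhibitory receptors that read MHC class I on other cells, in mice mostly the Ly49 family and the CD94/NKG2A pair. Interleukins 12, 15 and 18 drive their cytokine output and growth, and IL-27 signals through Il27ra and Il6st to STAT3 and related factors. Granzymes C to F are encoded beside Gzmb on chromosome 14 and are known from strongly stimulated mouse killer cells.

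The interferon-stimulated genes, described further down, had the lowest median ratio of the lists in IL-27 NK cells. The letters of 3 promoters are shown, of genes at a lower level in IL-27 NK cells that were chosen because they hold the searched letters. Bst2 (tetherin), Isg15 (a ubiquitin-like protein) and Socs1 (a feedback inhibitor of cytokine receptors) had 0.402, 0.523 and 0.457 times the control level in IL-27 NK cells. The letters of an interferon-stimulated response element were searched as GAAA, any 2 bases and GAAA again, on both strands in the 250 bases before each start site, and those of a STAT site as TTCNNNGAA. Capitals mark the matches, overlapping matches are joined, and the 250 bases are written 5′ to 3′ on the gene's strand, from RefSeq (GRCm38.p6).
Bst2, chr8:71537473-71537722, minus strand: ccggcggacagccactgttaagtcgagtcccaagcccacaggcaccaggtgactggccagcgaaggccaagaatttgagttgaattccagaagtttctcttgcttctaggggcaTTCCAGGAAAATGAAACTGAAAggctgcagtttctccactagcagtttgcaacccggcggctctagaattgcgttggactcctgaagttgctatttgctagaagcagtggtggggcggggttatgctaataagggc
Isg15, chr4:156200819-156201068, minus strand: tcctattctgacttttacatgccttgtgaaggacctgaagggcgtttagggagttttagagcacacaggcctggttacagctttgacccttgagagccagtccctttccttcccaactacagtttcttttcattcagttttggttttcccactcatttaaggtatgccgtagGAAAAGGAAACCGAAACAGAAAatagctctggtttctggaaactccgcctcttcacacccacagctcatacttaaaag
Socs1, chr16:10785537-10785786, minus strand: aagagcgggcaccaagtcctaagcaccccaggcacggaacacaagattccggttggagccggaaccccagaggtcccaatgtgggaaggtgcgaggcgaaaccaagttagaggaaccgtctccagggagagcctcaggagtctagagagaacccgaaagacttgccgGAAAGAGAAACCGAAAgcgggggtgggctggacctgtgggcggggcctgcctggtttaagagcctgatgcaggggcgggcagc

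The response element letters were found in 2 overlapping places in Bst2, 3 in Isg15 and 2 in Socs1, and a STAT match overlapped them in Bst2. Tap1 and Klf2, which were also lower in IL-27 NK cells, held none, while Gzma and Eomes, with ratios of 0.894 and 0.986, held 1 each. Over all 32851 promoters of the table, 2.98% held the response element letters and 7.02% the STAT letters. Of the 17 interferon-stimulated genes with enough UMIs, 12 were matched by symbol and 4 of them (33.3%) held the response element letters, against 135 of 3999 matched genes (3.38%) among all genes with enough UMIs. In the whole list, most of which was too sparse to compare, 13 of 29 matched genes held them. The match is a description of the letters in the window.

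The first question was how many of these cells the tumours held. NK cells without granzymes C to F made up 1.07% (0.879 to 1.29) of kept cells in the IL-27 matrix and 0.669% (0.523 to 0.843) in the control matrix, a ratio of 1.60 (1.18 to 2.19). The granzyme C to F cells, which passed the same gate with 2 or more UMIs of these granzymes, numbered 23 of 9990 in the IL-27 matrix (0.230%) and 16 of 10617 in the control matrix (0.151%), a ratio of 1.53 (0.773 to 3.09). Both populations had a larger share in the IL-27 matrix, with an interval for the granzyme C to F cells that holds 1. NK cells were 82.3% (74.6 to 88.4) of all cells in the NK gate in the IL-27 matrix and 81.6% (71.9 to 89.1) in the control matrix, so the split between the 2 populations was nearly the same. Shares depend on how many other cells were captured: cells with 2 or more Cd3 UMIs numbered 719 in the IL-27 matrix and 728 in the control matrix, and a neutrophil gate held 1920 and 2615 cells.

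**Figure D1:**
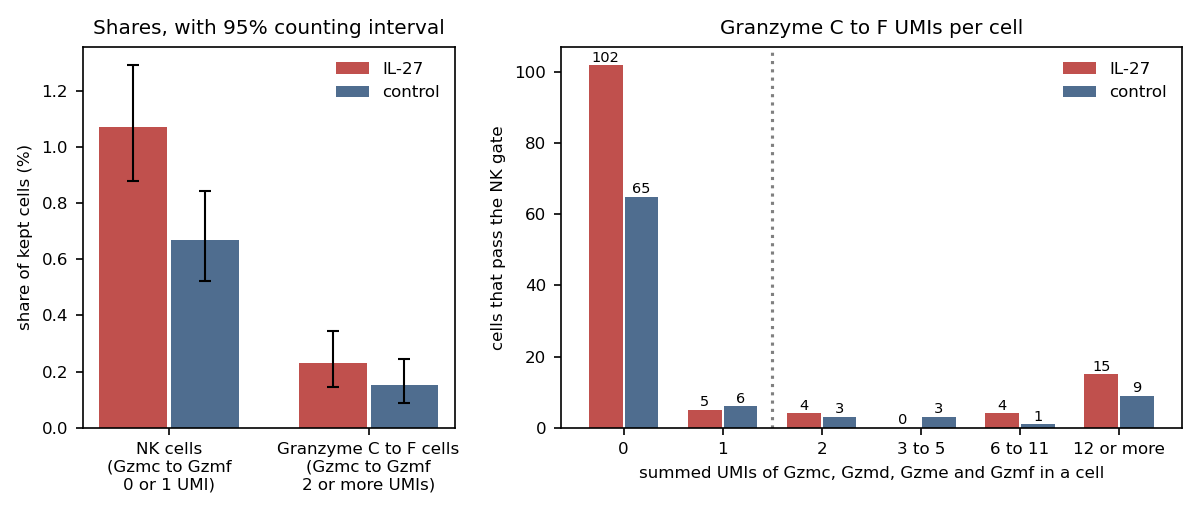
Left, share of kept cells (%) for NK cells and for granzyme C to F cells in the IL-27 matrix (red) and the control matrix (blue), with 95% exact binomial intervals. Right, number of cells that passed the NK gate by their summed UMIs of Gzmc, Gzmd, Gzme and Gzmf, where 102 IL-27 and 65 control cells had 0 and the dotted line marks the limit of 1 UMI.

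In the IL-27 matrix 102 cells had 0 UMIs of the 4 genes and 5 had 1, while 4 cells just outside had 2 and 15 had 12 or more, up to 2898 in 1 cell. In the control matrix 65 cells had 0 and 6 had 1, while 3 cells had 2, 2 had 3, 1 had 4, and 9 had 12 or more, up to 1608. The cells with 2 to 4 UMIs were thus 4 of the 23 granzyme C to F cells of the IL-27 matrix and 6 of the 16 of the control matrix. The limit on NK genes cut closer: 75 IL-27 cells and 38 control cells that passed every other limit had 1 of the 5 genes, and 34 and 20 members had exactly 2.

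The identity of the cells was checked with genes that the gate did not use. Klra8, the activating Ly49H receptor, had UMIs in 21 of 107 IL-27 cells and 19 of 71 control cells. Nkg7, a granule protein, was found in 97.2% of IL-27 cells and 100.0% of control cells, against 0.312% and 0.344% of cells in the neutrophil gate, whose median depth was 1779.5 and 2327 UMIs, against 3780 and 4315 in the NK cells. Prf1 (perforin) was found in 74.8% and 84.5% of NK cells, against 0.156% and 0.115% of the neutrophil gate. Cd4, Cd8a, Cd8b1, Cd5 and Foxp3 were at 0 UMIs in both matrices, as was Cd3e, which the gate limits. Of the 16 genes of the T cell list, which also holds transcripts known from NK cells such as the receptor constant genes, 9 had UMIs in IL-27 cells and 7 in control cells. The list summed to 722 CPM in IL-27 cells and 726 CPM in control cells, with UMIs in 93 of 107 and 68 of 71 cells. Alpha or beta V segments of the T cell receptor were found in 1 of 107 IL-27 cells and 1 of 71 control cells, against 72.7% and 88.9% of cells with 2 or more Cd3 UMIs. Beta constant transcripts, which mouse NK cells are known to carry without a rearranged receptor, were found in 81.3% and 87.3% of NK cells. Gamma or delta V segments were found in 23.4% and 35.2% of NK cells, against 8.90% and 22.5% of cells with 2 or more Cd3 UMIs, and the delta constant gene in 32.7% and 36.6%, against 2.64% and 1.79%. Of the 8 genes of the type 2 innate lymphocyte list, 3 had UMIs in IL-27 cells and 4 in control cells, with sums of 148 and 158 CPM in 39 of 107 and 28 of 71 cells, and Il5, Il13 and Il17rb were at 0. Of the 7 genes of the type 3 list, 1 had UMIs, 51 in 20 IL-27 cells and 34 in 16 control cells, and Il22 and Il23r were at 0. Itga1 (CD49a), a marker of type 1 innate lymphocytes, had 7 UMIs in IL-27 cells and 4 in control cells. Nkg7 and Prf1 were set only against the neutrophil gate, so they do not tell NK cells from killer T cells. Prf1 had 253 of 451390 UMIs in IL-27 NK cells and 218 of 347253 in control NK cells. A CD8 T cell gate held 521 of 893188 in the IL-27 matrix and 1917 of 2905732 in the control matrix. The label of NK cells thus rests on the gate, with Klra8 in a minority of the cells and UMIs of the T cell and innate lymphocyte lists beside it.

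The member cells held 451390 UMIs in the IL-27 matrix and 347253 in the control matrix. IL-27 cells had 513 to 21822 UMIs with a median of 3780 and control cells had 1230 to 18697 with a median of 4315, and over all kept cells the medians were 1870.5 and 2408. The median mitochondrial share was 1.89% and 1.35%. Of 133 barcodes that the matrices share, 1 NK barcode in each also occurs in the other matrix, none as an NK cell in both. Markers of other cells lay partly in a few cells. In all, 4 IL-27 cells and 3 control cells had 20 or more UMIs of MHC class II, macrophage or neutrophil genes. These cells held 92.6% of the MHC class II UMIs of the IL-27 NK cells and 44.2% of those of the control NK cells. They also held 10.3% and 9.46% of all UMIs of the NK cells, which the summed levels include. The whole dendritic cell list, 10 of 13 markers with a UMI in IL-27 cells and 7 of 13 in control cells, summed to 2479 and 916 CPM (counts of UMIs scaled to a library total of 1e6 over the summed cells), with Xcr1, Clec9a and Siglech at 0 in both. The macrophage list, 10 and 9 of 12 markers, summed to 295 and 72.0 CPM, with Adgre1 and Ms4a7 at 0, and the neutrophil list, 9 and 7 of 12 markers, to 171 and 348 CPM, with Ly6g at 0. Without these 7 cells the 3 lists summed to 452 and 741, to 56.8 and 79.5, and to 74.1 and 47.7 CPM. Gm42418, an annotated transcript that overlaps ribosomal RNA, was 1.85 times as high in IL-27 cells (50593 CPM) as in control cells (27349 CPM), and 1.68 times as high over all other cells of the matrices.

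Levels are given as CPM of the summed member cells, and ratios as IL-27 over control. Of 5008 genes with at least 20 UMIs over both matrices, 673 (13.4%) were at least 1.5-fold higher and 665 (13.3%) at least 1.5-fold lower in IL-27 NK cells, 26.7% in either direction, and the median log2 ratio was -0.03. With so few cells many of these calls rest on few UMIs, and a list is read against these shares. Gate genes with enough UMIs were kept in these counts and in the lists between the matrices, although they chose the cells. Ratios also differed by transcript length: over 5 equal groups of genes by length, the median log2 ratio was -0.13 and -0.24 in the 2 groups with the shortest transcripts, and 0.09 and 0.15 in the 2 with the longest. Of 66 single genes past 1.5-fold that were followed, 19 lost the call with the length trend removed and 10 without the marker-rich cells. Beyond these changes, the part of transcript length, of Gm42418 and of the marker-rich cells in any gene's ratio was not tested. With the gate applied to cells thinned to 1000 UMIs, which left 66 IL-27 and 48 control cells, the direction of Itgam, Il27ra, Cd2, Mki67 and Ikzf3 turned.

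The 12 highest ratios by the naming rule (at least 30 UMIs, in at least 10% of cells, with no cell holding over 25%) were those of Rttn, Sema6a, Kcnq1ot1, Tulp4, Bcl2l1, Dyrk2, Ipcef1, Dmxl1, Sbno2, Ash1l, Pet100 and Sod1, from 3.85 to 2.40. Bcl2l1 encodes BCL-XL, a mitochondrial inhibitor of cell death, and had 77.5 CPM in IL-27 cells and 28.8 CPM in control cells, a ratio of 2.69 (1.30 to 6.10). Its UMIs were found in 24 of 107 IL-27 cells and 10 of 71 control cells, and its ratio was 1.12 over all other cells. Sbno2, a transcriptional regulator known as a target of STAT3 in macrophages, had 102 CPM and 40.3 CPM, a ratio of 2.53 (1.37 to 4.98). The Sbno2 ratio was 1.01 over all other cells. Sod1, the cytosolic superoxide dismutase, had 117 and 49.0 CPM, a ratio of 2.40 (1.37 to 4.42), and was also 2.07 times as high over all other cells, and its ratio was 1.45 with the gate on thinned cells. Tulp4, with 139 and 38 UMIs the best covered of the 12, had a ratio of 2.81 (1.95 to 4.14) in NK cells and 1.39 over all other cells. Kcnq1ot1, a long noncoding transcript that stays in the nucleus, had 128 and 40.3 CPM, a ratio of 3.19 (1.76 to 6.19), and 1.71 over all other cells. All 12 had an interval above 1, but they were picked by these ratios, so the intervals are no support for a difference.

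The 12 lowest ratios were those of Per1, Kbtbd11, Klrb1a, Tecr, Bst2, Uap1, Cst7, Ergic3, Ciao2b, Klf2, Pycard and Ppp1r14b, from 0.325 to 0.453. All 12 had an interval below 1, but they too were picked by their ratios, so the intervals are no support for a difference. Klf2, the factor that drives genes of lymphocyte circulation such as S1pr1, had 202 CPM in IL-27 cells and 461 CPM in control cells, a ratio of 0.438 (0.334 to 0.569). It was found in 50 of 107 IL-27 cells and 46 of 71 control cells, and in 17.0% (10.4 to 25.5) and 29.6% (19.3 to 41.6) when each cell was thinned to 1000 UMIs. Over all other cells its ratio was 0.598. Klrb1a, a receptor of the NKR-P1 family, had 48.7 CPM and 132 CPM, a ratio of 0.368 (0.211 to 0.624), and 1.17 over all other cells. Klrb1c (NK1.1), its neighbour on chromosome 6 and one of the gate genes, had 224 and 158 CPM, a ratio of 1.41 (1.01 to 2.00). Cst7 (cystatin F), an inhibitor of granzyme-activating proteases, had 64.2 and 153 CPM, a ratio of 0.421 (0.258 to 0.674), but 0.807 when the gate was applied to thinned cells. The Cst7 ratio was 0.569 over all other cells. Per1, a clock gene that glucocorticoids also induce, had 42.1 and 130 CPM, a ratio of 0.325 (0.179 to 0.567), and 0.565 over all other cells. Pycard, the adaptor of inflammasomes, had 39.9 and 89.3 CPM, a ratio of 0.447 (0.235 to 0.824), and 0.803 over all other cells.

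**Figure D2:**
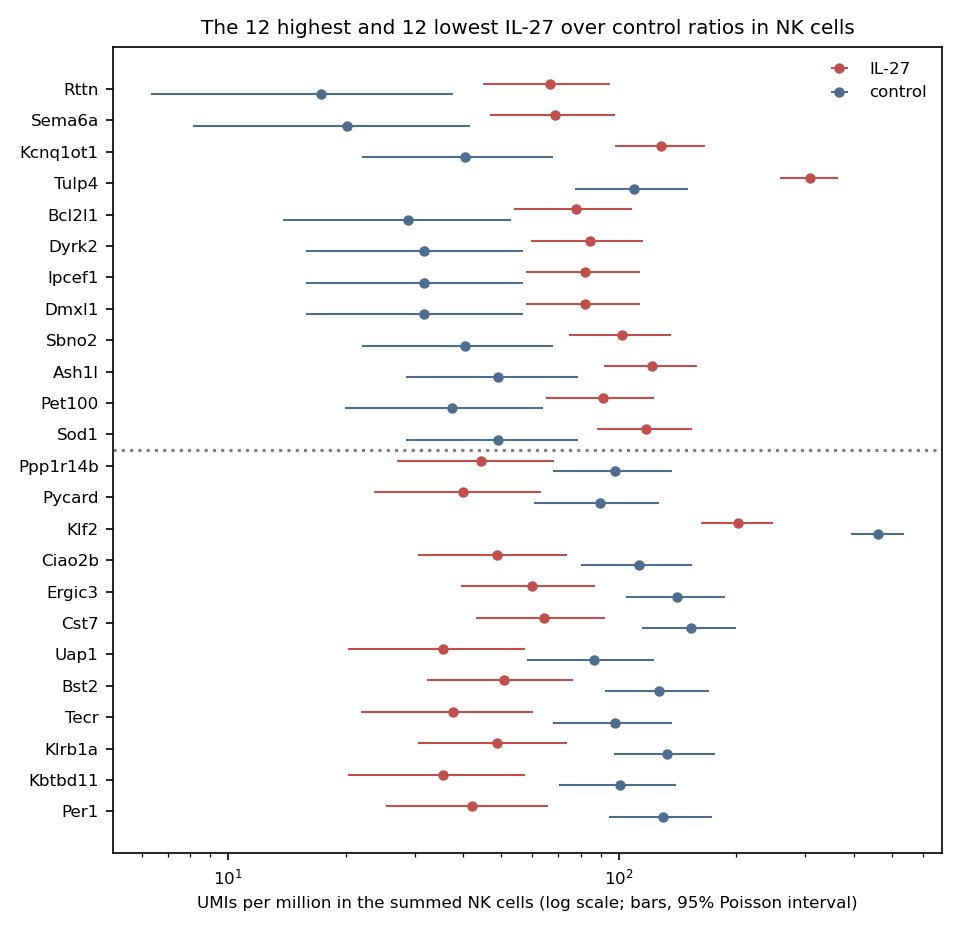
Level in the summed NK cells (CPM, log axis) of the 12 genes with the highest and the 12 with the lowest ratio, in the IL-27 matrix (red) and the control matrix (blue), with 95% Poisson intervals. The genes above the dotted line run from Rttn (ratio 3.85) to Sod1 (2.40) and those under it from Ppp1r14b (0.453) to Per1 (0.325).

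Among receptors, Klrc1 was past 1.5-fold lower in IL-27 NK cells and its partner Klrd1 was inside it. Klrc1 (NKG2A), the inhibitory chain that reads Qa-1, had 140 CPM in IL-27 cells and 253 CPM in control cells, a ratio of 0.551 (0.392 to 0.770), or 0.757 in cells with at least 3 of the 5 NK genes. It was found in 31 of 107 and 36 of 71 cells, and in 8.49% (3.96 to 15.5) and 23.9% (14.6 to 35.5) after thinning. Klrd1 (CD94), its partner, had 326 and 420 CPM, a ratio of 0.775 (0.612 to 0.981), and after thinning a UMI remained in 22.6% (15.1 to 31.8) and 40.8% (29.3 to 53.2) of the cells. The thinned neutrophil gate had 0 and 0.0414%. Klrc2 (NKG2C), the activating chain, had 70.9 and 49.0 CPM with an interval of the ratio from 0.780 to 2.78, and Klrk1 (NKG2D), which reads stress ligands, had 230 and 219 CPM, a ratio of 1.05 (0.776 to 1.43). Tigit, a checkpoint receptor for nectins, had 310 and 524 CPM, a ratio of 0.592 (0.471 to 0.742), and its ratio was 0.705 over all other cells. Pdcd1 had 1 UMI in IL-27 cells and 2 in control cells, Lag3 7 and 9, and Klrg1 6 and 10, so none of these could be compared at this depth.

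Of the 16 activating receptors and adaptors with enough UMIs, 0 were at least 1.5-fold higher and 4 were lower, with a median log2 ratio of -0.24. The 4 were Cd244a, Ly9, Cd2 and Cd7, of which Cd2 stood at the limit of the fold and had a ratio of 1.20 with the gate on thinned cells. Cd7, a surface protein of T and NK cells, had 202 CPM in IL-27 cells and 432 CPM in control cells, a ratio of 0.467 (0.356 to 0.610), and its ratio was 0.560 over all other cells. The adaptors Tyrobp (DAP12) and Hcst (DAP10) differed little, with ratios of 0.929 (0.845 to 1.02) and 0.952 (0.784 to 1.16). Ncr1 (NKp46), a gate gene, had 49 UMIs in IL-27 cells and 33 UMIs in control cells, a ratio of 1.14 (0.720 to 1.83).

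The Ly49 receptors, whose genes lie side by side on chromosome 6 (Klra8 at 130115226 to 130129898 and Klra3 at 130323289 to 130337574, build GRCm38), did not move together. Of 6 with enough UMIs, Klra1 and Klra3 were at least 1.5-fold higher, Klra8 was lower, and the median log2 ratio was 0.02. Over the alternatives 0 to 3 were higher and 0 to 3 lower, and with the gate on thinned cells Klra3 and Klra8 had ratios of 1.44 and 0.795. Klra3 (Ly49C) had 160 CPM in IL-27 cells and 86.4 CPM in control cells, a ratio of 1.85 (1.19 to 2.93). Klra8 (Ly49H) had 86.4 and 147 CPM, a ratio of 0.588 (0.378 to 0.910). Klra7 (Ly49G) had 173 and 259 CPM, a ratio of 0.667 (0.486 to 0.913). Klra1 (Ly49A) had 26 UMIs in 9 IL-27 cells and 3 UMIs in 3 control cells, a ratio of 6.67 (2.04 to 34.4). These genes are near copies of each other, and B6C3F1 hybrids carry a second set of alleles from their C3H parent, so the counting could split reads between them and each single ratio is uncertain. Any Ly49 UMI was found in 78 of 107 IL-27 cells (72.9%, 63.5 to 81.0) and 57 of 71 control cells (80.3%, 69.1 to 88.8), and in 41.5% (32.0 to 51.5) and 47.9% (35.9 to 60.1) after thinning, which overlap.

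**Figure D3:**
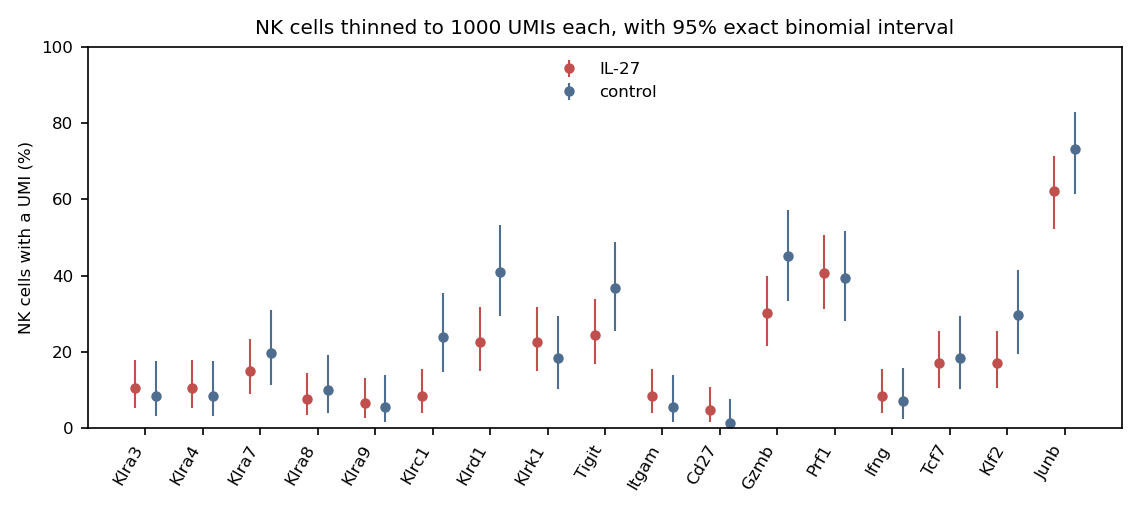
Share of NK cells with a UMI (%) after thinning each cell to 1000 UMIs, for receptors, maturation markers, effectors and factors, in the IL-27 matrix (red, 106 cells) and the control matrix (blue, 71 cells), with 95% exact binomial intervals. Klrc1 was found in 8.49% and 23.9% and Klrd1 in 22.6% and 40.8%, while Prf1 was found in 40.6% and 39.4%.

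The killing machinery was expressed in both groups. Of 16 cytotoxic effectors with enough UMIs, 0 were at least 1.5-fold higher and 4 were lower (Gzmk, Fasl, Ctsd and Cst7), with a median log2 ratio of -0.26. The background of 13.3% lower belongs to the main setting, so counts under the alternatives are not set against it. The number lower was 1 of 14 with the gate on thinned cells. It was 6 of 15 without the cells with the highest doublet (Scrublet) scores. Scrublet called 0 cells in both matrices, so leaving these cells out is not a check for doublets. Gzma, the tryptase granzyme and a gate gene, had 0 to 92 UMIs per IL-27 cell with a median of 15 and 0 to 114 per control cell with a median of 18, and 4774 and 5339 CPM, a ratio of 0.894 (0.840 to 0.952). Prf1 had 560 and 628 CPM, a ratio of 0.893 (0.742 to 1.08), and 0.411 over all other cells. Gzmb, the caspase-activating granzyme, had 749 and 1071 CPM, a ratio of 0.699 (0.601 to 0.812), and 0.659 over all other cells. It was found in 30.2% (21.7 to 39.9) and 45.1% (33.2 to 57.3) of thinned cells. Fasl, a death ligand, had 102 and 179 CPM, a ratio of 0.571 (0.381 to 0.849), or 0.765 with the gate on thinned cells. Ctsw, a protease of NK and CD8 T cells, had 470 and 688 CPM, a ratio of 0.682 (0.564 to 0.824).

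Of 10 cytokines and chemokines with enough UMIs, 0 were at least 1.5-fold higher and 4 were lower (Csf2, Xcl1, Flt3l and Osm), with a median log2 ratio of -0.46, and over the alternatives 0 to 2 were higher and 1 to 5 lower. The Osm call rests on 24 control UMIs of which 75% lay in 1 cell, and Csf2 had 12 UMIs in 5 IL-27 cells and 18 in 3 control cells. Xcl1, which attracts type 1 dendritic cells, had 222 CPM in IL-27 cells and 371 CPM in control cells, a ratio of 0.596 (0.455 to 0.780), or 0.746 without the marker-rich cells. Ccl5, a chemokine of resting and activated NK cells, had 0 to 140 UMIs per IL-27 cell with a median of 23 and 0 to 258 per control cell with a median of 28, a ratio of 0.786 (0.750 to 0.823). Ifng (interferon gamma) had 36 UMIs in 19 IL-27 cells and 22 UMIs in 15 control cells, a ratio of 1.26 (0.721 to 2.25), so no difference was detectable at this depth. Ccl4 had 62 UMIs in 14 IL-27 cells and 71 in 10 control cells, with 27.4% and 33.8% of them in 1 cell.

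Among transcription factors, 4 of 27 were at least 1.5-fold higher (Zeb2, Runx3, Ikzf2 and Myb) and 5 were lower (Tbx21, Lef1, Ikzf3, Klf2 and Nr4a1), with a median log2 ratio of -0.02. For Ikzf3, 1 control cell held 31% of the UMIs. Its ratio of 0.659 was 0.999 without the marker-rich cells and 1.40 with the gate on thinned cells. Eomes, a T-box factor of NK identity and a gate gene, had 656 CPM in IL-27 cells and 665 CPM in control cells, a ratio of 0.986 (0.827 to 1.18). Tbx21 (T-bet), the related factor of late maturation and interferon gamma, had 84.2 and 135 CPM, a ratio of 0.622 (0.395 to 0.975), or 0.707 with the trend over transcript length removed. The Tbx21 ratio was 0.379 over all other cells. Runx3, which directs cytotoxic lymphocyte programmes, had 966 and 605 CPM, a ratio of 1.60 (1.35 to 1.89), against 1.26 over all other cells. Myb, a factor of progenitor-like lymphocytes, had 321 and 179 CPM, a ratio of 1.80 (1.33 to 2.46). Tcf7 (TCF-1), a factor of less differentiated lymphocytes, had 292 and 210 CPM, a ratio of 1.39 (1.04 to 1.88), while the related Lef1 had 64.2 and 115 CPM, a ratio of 0.558 (0.333 to 0.922), or 0.727 in cells with at least 3 of the 5 NK genes. Maf had 26 UMIs in 20 IL-27 cells and 6 UMIs in 4 control cells, a ratio of 3.33 (1.34 to 9.90), and its ratio was 1.98 over all other cells. Zeb2, a factor of terminal maturation, had 97.5 and 51.8 CPM, a ratio of 1.88 (1.06 to 3.46), or 1.27 with the gate on thinned cells. Ikzf2 had 1.54, or 1.36 with the length trend removed.

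The maturation lists had medians under that of all genes, as did most of the lists. Of 12 genes of mature circulating NK cells, 2 were higher and 3 were lower (median log2 ratio -0.33), and of 11 genes of immature and memory-like NK cells, 0 were higher and 3 were lower (-0.32). Cd27, which marks early maturation stages, had 66.5 CPM in IL-27 cells and 66.2 CPM in control cells, a ratio of 1.00 (0.564 to 1.81). Itgam (CD11b), which marks later stages, had 117 and 51.8 CPM, but 1 IL-27 cell held 49.1% of its UMIs, and without the cell with the most UMIs in each matrix the ratio was 1.43. Both transcripts were found together in 2 IL-27 cells and 2 control cells, Itgam alone in 21 and 10, Cd27 alone in 19 and 16, and neither in 65 and 43, so most cells could not be staged at this depth. Of 12 genes of type 1 innate lymphocytes and residency, 2 were higher and 3 were lower (-0.30), with 0 to 6 lower over the alternatives. Ccr2, which guides cells to inflamed tissue, had 197 and 127 CPM, a ratio of 1.56 (1.07 to 2.29), or 1.38 in cells with at least 3 of the 5 NK genes, and 1.54 over all other cells. Of the 19 trafficking receptors and integrins, 2 were higher and 5 were lower (-0.22).

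The receptor of the injected cytokine was barely covered. Il27ra had 8 UMIs in 8 IL-27 cells and 11 UMIs in 9 control cells, a ratio of 0.559 (0.195 to 1.53), and Il6st (gp130) had 6 and 2 UMIs, a ratio of 2.31 (0.413 to 23.4). Of 21 genes of IL-27, IL-12 and STAT signalling, 4 were at least 1.5-fold higher (Jak2, Tyk2, Cish and Maf) and 5 were lower (among them Socs1, Socs3, Bcl3 and Lgals3bp), with a median log2 ratio of -0.06. Stat3 had 1766 CPM in IL-27 cells and 1716 CPM in control cells, a ratio of 1.03 (0.924 to 1.15). Socs3, a feedback inhibitor that STAT3 induces, had 193 and 308 CPM, a ratio of 0.625 (0.466 to 0.838), near its ratio of 0.627 over all other cells, but 0.741 without the cells with the highest Scrublet scores. Socs1, shown above with its promoter, had 48.7 and 107 CPM, a ratio of 0.457 (0.257 to 0.796), or 0.673 with the gate on thinned cells, and 0.906 over all other cells. Bcl3, a nuclear partner of NF-kappaB, had 88.6 and 179 CPM, a ratio of 0.496 (0.325 to 0.750). Jak2, the kinase of the IL-12 and interferon gamma receptors, had 337 and 210 CPM, a ratio of 1.60 (1.20 to 2.15), or 1.32 as the mean of each cell's CPM, and Il12rb2, the signalling chain of the IL-12 receptor, had 286 and 202 CPM, a ratio of 1.42 (1.05 to 1.92). Cish, an inhibitor of IL-15 signalling, had 199 and 130 CPM, a ratio of 1.54 (1.06 to 2.25), but 1.00 with the gate on thinned cells. Il2rg, the chain shared by the receptors of interleukins 2 and 15, had 514 and 835 CPM, a ratio of 0.615 (0.516 to 0.734), or 0.704 with the length trend removed, while Il2rb, the other chain, had 2331 and 2177 CPM, a ratio of 1.07 (0.974 to 1.18).

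Of 17 interferon-stimulated genes with enough UMIs, 0 were at least 1.5-fold higher and 7 were lower (among them Isg15, Ifi27l2a, Bst2, Zbp1, Ly6a and Ly6c2), with a median log2 ratio of -0.53, the lowest of the 23 lists that had 5 or more such members. Over the alternatives 4 to 9 were lower, and for Ly6a and Ly6c2 most control UMIs lay in 1 cell. Ifi27l2a, a small interferon-induced protein, had 21 UMIs in 11 IL-27 cells and 94 UMIs in 15 control cells, a ratio of 0.172 (0.102 to 0.278), and 0.591 over all other cells. Bst2 had 51.0 CPM in IL-27 cells and 127 CPM in control cells, a ratio of 0.402 (0.232 to 0.681), and 0.759 over all other cells. Isg15 had 37.7 and 72.0 CPM, a ratio of 0.523 (0.265 to 1.01), and 0.492 over all other cells. Ly6a had 18 control UMIs, of which 66.7% lay in 1 cell. For Ly6c2, 96.2% of 52 control UMIs lay in 1 cell, and without the cell with the most UMIs in each matrix its ratio was 1.12. Of 18 interferon gamma-induced genes, 1 was higher and 5 were lower (-0.31).

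Of 21 MHC class I and peptide loading genes, 0 were at least 1.5-fold higher and 6 were lower (H2-D1, H2-Q7, H2-T22, Tap1, Tap2 and Psmb10), with a median log2 ratio of -0.35. Over the alternatives 3 to 6 were lower, and Tap1, at the limit of the fold, had a ratio of 0.933 with the gate on thinned cells. H2-D1, a classical class I heavy chain, had 0 to 38 UMIs per IL-27 cell with a median of 9 and quartiles of 6 and 11, and 4 to 39 UMIs per control cell with a median of 17 and quartiles of 12 and 22. These counts per cell are not scaled for depth, which was lower in IL-27 cells (medians of 3780 and 4315 UMIs). The levels were 2140 and 3611 CPM, a ratio of 0.593 (0.544 to 0.645), against 0.755 over all other cells. With the length trend removed the ratio in NK cells was 0.717. H2-K1, the other classical heavy chain, had 1 to 50 UMIs per IL-27 cell with a median of 17 and 3 to 78 per control cell with a median of 26, a ratio of 0.741 (0.694 to 0.790), against 0.848 over all other cells. H2-T22, a nonclassical chain, had 113 and 222 CPM, a ratio of 0.510 (0.350 to 0.735). B2m, the light chain they share, had 2940 and 2701 CPM, a ratio of 1.09 (1.00 to 1.18), on the other side of 1. The H2 genes have close copies, and the hybrid hosts carry alleles of 2 strains, so reads of one H2 gene can be counted for another.

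**Figure D4:**
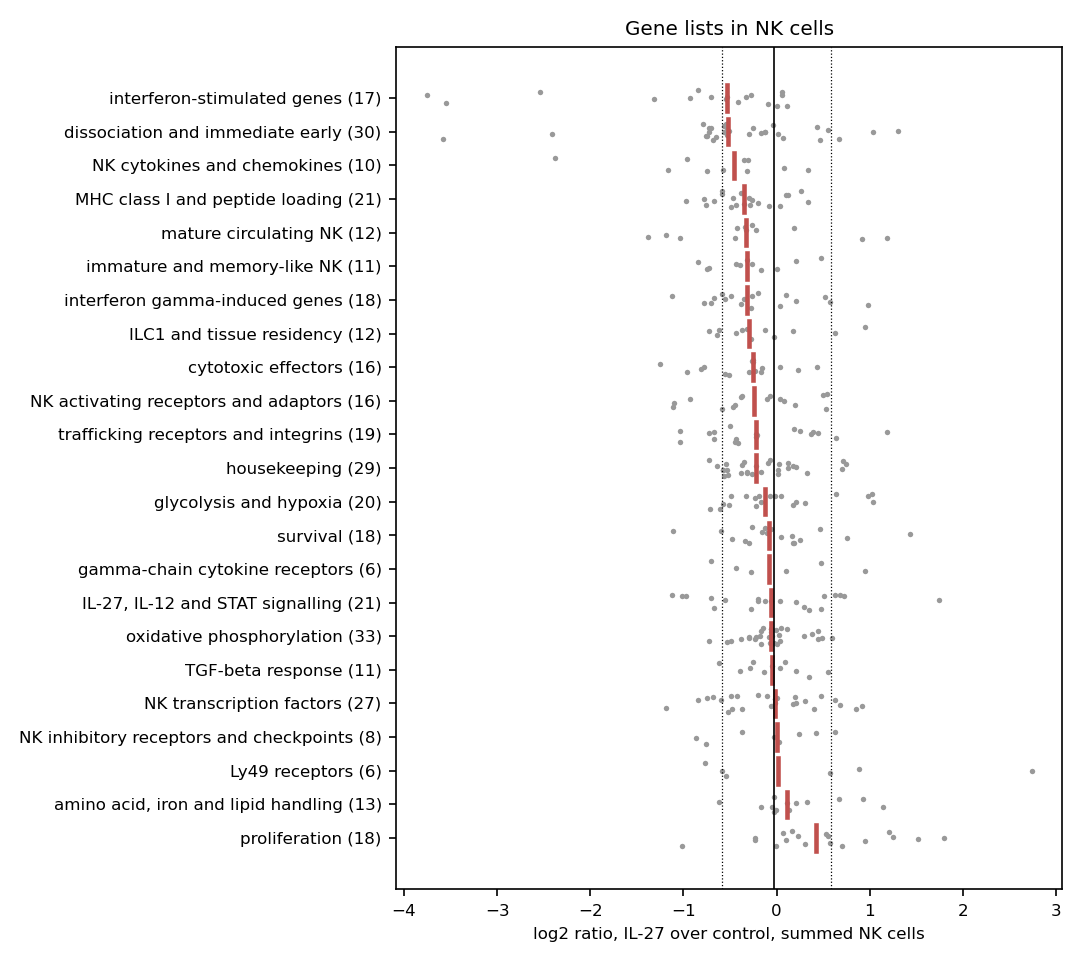
Log2 ratio (IL-27 over control) of each list member with at least 20 UMIs in the summed NK cells (grey points, number of members in brackets) and the median of each list (red bar). The solid line is the median of all 5008 genes (-0.03) and the dotted lines mark 1.5-fold; interferon-stimulated genes had the lowest median (-0.53) and proliferation genes the highest (0.42).

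Immediate early genes answer to stimulation in the tissue and also to enzymatic dissociation. Of 30 with enough UMIs, 3 were higher (Egr1, Ier3 and Atf3) and 10 were lower, with a median log2 ratio of -0.52, and over the alternatives 0 to 5 were higher and 4 to 14 lower. With the length trend removed 5 were higher and 4 lower, and Junb, Nr4a1, Ier2, Nfkbia and Dusp1 were inside 1.5-fold. Junb had 0 to 34 UMIs per IL-27 cell with a median of 3 and 0 to 22 per control cell with a median of 9, and 1163 and 1967 CPM, a ratio of 0.591 (0.527 to 0.664), against 0.794 over all other cells. Nr4a1, an early gene of receptor signalling, had 157 and 265 CPM, a ratio of 0.594 (0.429 to 0.818), and Ier2 292 and 469 CPM, a ratio of 0.623 (0.491 to 0.789). Nfkbia, the inhibitor of NF-kappaB, had 658 and 1031 CPM, a ratio of 0.638 (0.545 to 0.746), and 0.608 over all other cells. Dusp1, a phosphatase that ends kinase signalling, had ratios of 0.604 in NK cells, or 0.941 with the gate on thinned cells, and 0.600 over all other cells. The 3 higher genes and the heat shock genes Hspa1a and Hspa1b rested on few cells: 77.8% of the Egr1 UMIs of IL-27 cells lay in 1 cell, and all 41 Hspa1a UMIs of control cells lay in 1 cell. The part of tissue handling in these levels was not tested.

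Of the survival genes, 2 of 18 were higher (Bcl2l1 and Bcl2l11) and 2 were lower (among them Fas), with a median log2 ratio of -0.09. Bcl2l11 encodes BIM, which promotes the death that BCL-XL blocks, and had 877 CPM in IL-27 cells and 518 CPM in control cells, a ratio of 1.69 (1.42 to 2.03), against 1.29 over all other cells. It was found in 58.5% (48.5 to 68.0) and 35.2% (24.2 to 47.5) of thinned cells. Bcl2 had 255 and 227 CPM, a ratio of 1.12 (0.834 to 1.51). Of 18 proliferation genes, 6 were higher and 1 was lower (median 0.42), with 2 to 9 higher over the alternatives, but Mki67 was found in 5 IL-27 cells (4.67%, 1.53 to 10.6) and 4 control cells (5.63%, 1.56 to 13.8), and 2 cells in each matrix held 84.6% and 68.9% of the UMIs of 14 cycling genes. The list rests mostly on 2 cells in each matrix and gives no direction for the population.

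The remaining lists stood near the median of all genes or near the background share. Oxidative phosphorylation had 1 higher and 1 lower member of 33 (median -0.06), glycolysis and hypoxia 4 and 2 of 20 (-0.12), TGF-beta response 0 and 1 of 11 (-0.06), gamma-chain cytokine receptors 1 and 1 of 6 (-0.09), inhibitory receptors and checkpoints 1 and 2 of 8 (0.00), and amino acid, iron and lipid handling 3 and 1 of 13 (0.11). Housekeeping genes, with 3 higher and 2 lower members of 29, had a median of -0.22, so a median of that size does not set a list apart.

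The last comparison set the NK cells against the granzyme C to F cells within each matrix. These ratios are NK cells over granzyme C to F cells, are given for the IL-27 matrix and then the control matrix, and leave out the gate genes. Granzyme C to F cells were deeper, with medians of 8218 and 7702.5 UMIs, so summed CPM and not shares of cells are compared. Of 3794 genes, 685 (18.1%) were at least 1.5-fold higher in NK cells in both matrices and 330 (8.7%) were lower in both, and with 23 and 16 granzyme C to F cells single cells weigh heavily. Without cells rich in other lineages' markers the counts were 420 and 154, and with the gate on thinned cells 340 and 146. The dendritic cell list summed to 2479 CPM in NK cells and 1531 CPM in granzyme C to F cells of the IL-27 matrix, and to 916 and 4512 CPM in the control matrix, and its part in these ratios was not tested. Ccl5 stood farthest apart, with 8113 CPM in NK cells and 254 CPM in granzyme C to F cells of the IL-27 matrix and 10327 and 363 CPM in the control matrix, ratios of 32.0 and 28.5 on 65 and 81 UMIs in the granzyme C to F cells. Klf2 was also higher in NK cells, with ratios of 8.60 (3.80 to 24.1) and 5.71 (3.50 to 9.89), as was Pde2a, a phosphodiesterase, with 5.49 (3.53 to 8.95) and 6.07 (3.62 to 10.9). Pou6f1, Arl5c, Abcg1, Ninj1 and N4bp1 completed the 8 highest.

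Thy1, a surface protein of T cells and of some innate lymphocytes, was lower in NK cells, with 210 CPM in NK cells and 648 CPM in granzyme C to F cells of the IL-27 matrix and 276 and 954 CPM in the control matrix, ratios of 0.325 and 0.290. In the same direction, Plscr1, Atpif1, Tmem256, Ctsd, Lsp1, Psmb9 and Gstp1 completed the 8 lowest. Of 18 proliferation genes 0 were higher and 13 were lower in NK cells in both matrices, against 18.1% and 8.7% of all genes compared. Of 18 glycolysis and hypoxia genes 2 were higher and 6 were lower, Gapdh with ratios of 0.459 (0.403 to 0.521) and 0.335 (0.294 to 0.382). Gzmb, which the rule did not use, had 749 CPM in NK cells and 1554 CPM in granzyme C to F cells of the IL-27 matrix and 1071 and 2639 CPM in the control matrix, with 56.3% and 39.6% of the granzyme C to F cells' UMIs in 1 cell. Il2ra, the activation-induced chain of the interleukin 2 receptor, had ratios of 0.493 (0.257 to 0.939) and 0.302 (0.113 to 0.739), and Ctla4, a checkpoint receptor of activated T cells, 0.0740 (0.0258 to 0.174) and 0.247 (0.106 to 0.530).

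**Figure D5:**
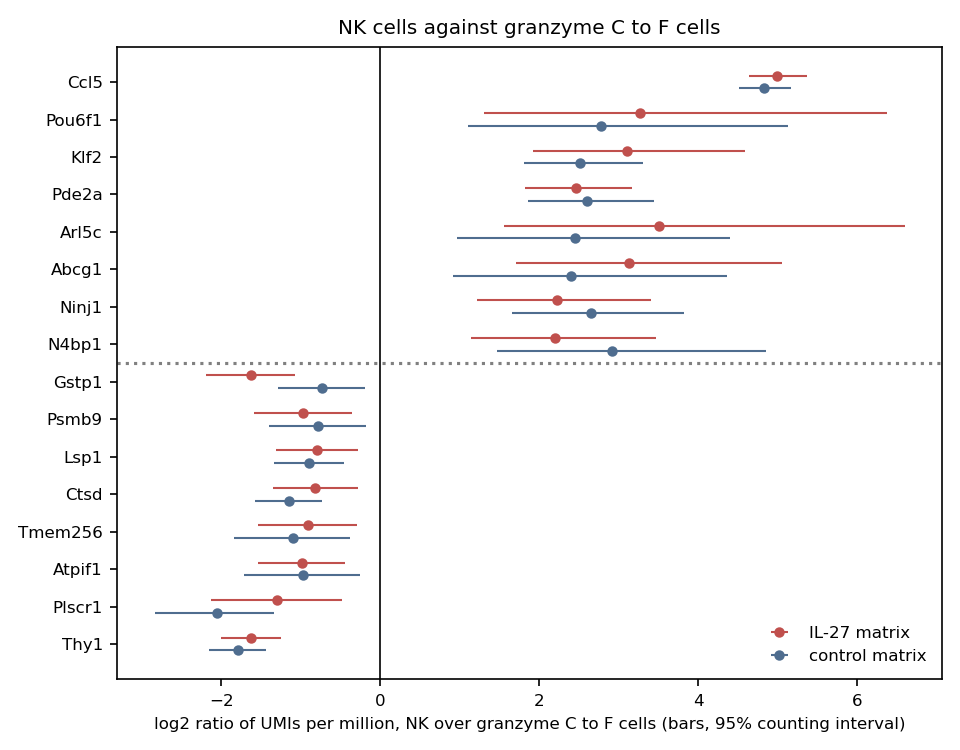
Log2 ratio of CPM, NK cells over granzyme C to F cells, for the 8 highest and 8 lowest genes in the IL-27 matrix (red) and the control matrix (blue), with 95% counting intervals. Ccl5 had ratios of 32.0 and 28.5 and Thy1 of 0.325 and 0.290.

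Response genes of TGF-beta, a cytokine that restrains NK cells, were higher in NK cells without granzymes C to F. Of 11, 7 were at least 1.5-fold higher in both matrices and 0 were lower (Pmepa1, Skil, Ski, Cd9, Smad3, Tgif1 and Smad7), with median log2 ratios of 1.49 and 1.30, against 0.18 and 0.10 for all genes compared. Pmepa1, a feedback inhibitor of the pathway, had ratios of 3.23 (2.53 to 4.16) and 2.76 (2.14 to 3.60), and Smad7, another, 2.48 (1.86 to 3.36) and 2.61 (1.91 to 3.63). Tgfb1 itself had ratios of 1.89 (1.64 to 2.18) and 1.94 (1.69 to 2.23). Of 20 genes of IL-27, IL-12 and STAT signalling, 12 were higher in both and 0 were lower, among them Stat4 with 2.43 (1.70 to 3.56) and 1.95 (1.32 to 2.92), Il12rb2 with 1.98 (1.36 to 2.93) and 2.65 (1.54 to 4.80), and Il18rap, a chain of the IL-18 receptor, with 2.43 (1.56 to 3.92) and 2.87 (1.62 to 5.41). Of 24 transcription factors 11 were higher, Tcf7 with 2.27 (1.54 to 3.43) and 1.80 (1.14 to 2.94), and only Rora was lower. Of 24 immediate early genes 13 were higher and 0 were lower. The shares over all genes compared were 18.1% higher and 8.7% lower in both matrices. Housekeeping genes had 2 higher and 6 lower of 29, with median log2 ratios of -0.53 and -0.33. The list counts against granzyme C to F cells were not repeated under the alternatives. Ifng had 36 UMIs in NK cells and 2 in granzyme C to F cells of the IL-27 matrix, and 22 and 0 in the control matrix. Tigit had ratios of 3.05 (2.00 to 4.84) and 2.85 (2.02 to 4.11).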

How the data were processed

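The deposited files hold raw UMI counts for each gene in each barcode, with 1 matrix for IL-27 and 1 for control. The labels' protocols give a droplet 5' single-cell kit, and the file headers give Cell Ranger 4.0.0 as the writer. Per the submitters' processing notes, the authors' tools included Cell Ranger 4.0 and Seurat 3.2.0, with the build mm10. Scrublet (Scanpy 1.11.5) called 0 cells in both matrices and so has not worked, and no doublets were removed.

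Counts were summed over the member cells of each matrix with Python 3.11.15, NumPy 2.4.6 and SciPy 1.17.1. Shares have Clopper-Pearson intervals, CPM Poisson intervals and ratios conditional binomial intervals, all exact and at 95%. A gene at 0 in 1 matrix entered list medians at a floor of 3 counts. For shares at 1 depth each cell was thinned to 1000 UMIs, which left out 1 IL-27 cell. Genes were named by the rule given with them, which leaves out gate, mitochondrial, ribosomal, receptor segment and model genes and other cells' markers. Further names were list members with the largest or smallest ratio among those with 30 UMIs, a fixed set such as Ifng, Gzmb and Prf1, and other list members chosen after their values were seen. The ratio table was tested on simulated data in which all cells of a matrix shared 1 profile, so spread between cells was not part of it. The members and the 24 gene lists were chosen with earlier results of these data known. Some list members are counted in their lists but not reported singly here. List symbols Il1r8 and Aldoa had no single match. The alternatives were 15 planned changes of the cell limits, gate, scaling and gene filter and 1 added after seeing the data.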

Additional observations from a re-analysis of the deposited data

Results flagged for a closer look

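Of the list members and named genes, 5 were at least 1.5-fold apart between the matrices in opposite directions in NK cells and in a CD8 T cell gate (89 IL-27 cells and 257 control cells), with both counting intervals off 1. The difference between the cell types was not tested, and each direction rests on 1 matrix per group. Areg, the growth factor amphiregulin, had a ratio of 0.192 (0.0348 to 0.713) in NK cells and 7.16 (4.98 to 10.4) in CD8 T cells. The NK ratio rests on 3 UMIs in 3 IL-27 cells and 12 in 3 control cells, with 66.7% of the 12 in 1 cell. Lef1 had 0.558 in NK cells and 1.76 (1.20 to 2.57) in CD8 T cells. Sbno2 had 2.53 in NK cells and 0.522 (0.293 to 0.875) in CD8 T cells. The tubulins Tuba1b and Tubb5 had 1.92 (1.36 to 2.77) and 1.63 (1.16 to 2.32) in NK cells. In CD8 T cells they had 0.575 (0.519 to 0.636) and 0.517 (0.464 to 0.576). In NK cells 1 cell held 30.4% and 31.5% of their IL-27 UMIs, and 1 cell 41.3% and 19.6% of their control UMIs. Without the cell with the most UMIs in each matrix the NK ratios were 2.21 and 1.35, so Tubb5 fell inside 1.5-fold.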

How the results depend on the processing

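The ratio of the NK cell shares was 1.52 to 1.69 under the 10 changes of cell limits and gate, and its interval stayed above 1 in each. With a minimum of 50 UMIs per gene, 215 genes were higher and 231 lower in IL-27 NK cells, and 315 and 137 were higher and lower in NK cells than in granzyme C to F cells, since fewer genes enter. With the gate on cells thinned to 1000 UMIs, which left 66 IL-27 and 48 control cells, the counts against granzyme C to F cells were 340 and 146, and without cells rich in other lineages' markers 420 and 154. The other counts over all genes moved by less than 1.5 times, while counts within lists moved by more. Ranges are given with some of the lists only. Among the others, IL-27, IL-12 and STAT signalling had 1 to 6 higher and 4 to 6 lower, and activating receptors 0 to 3 and 2 to 4. Transcription factors had 3 to 6 and 3 to 6, and mature circulating NK genes 0 to 2 and 1 to 5. Interferon gamma-induced genes had 0 to 3 and 2 to 6, glycolysis and hypoxia 0 to 4 and 1 to 5, and survival 1 to 4 and 0 to 4. Of 94 single genes followed, 66 were past 1.5-fold, and 35 of these stayed past it in the same direction under all 16 alternatives. Of the other 31, 18 lost the call with the gate on thinned cells and 19 with the trend over transcript length removed, some under both. Among them 5 changed direction under the thinned gate: the log2 ratio was -0.32 for Itgam, 0.43 for Il27ra, 0.26 for Cd2, -1.09 for Mki67 and 0.49 for Ikzf3, and the cause was not tested. Rttn (2.15 to 5.59), Sema6a (2.19 to 7.11), Maf (1.74 to 5.31) and Klra1 (2.99 to 8.11) kept the call and moved by over 1.5 times, as did Ifi27l2a (0.0721 to 0.271) and others. Medians of the interferon-stimulated, MHC class I and cytotoxic lists were below that of all genes under all 16 alternatives. In the main setting most of the 23 lists had a median below it, housekeeping genes among them (-0.22). A median on that side therefore does not set a list apart. The proliferation median was -0.16 to 0.95. No paired analysis was possible because each group is 1 matrix, so no replicate could be left out either. Counting error at 71 and 107 cells limits every gene with few UMIs, receptors of IL-27 and checkpoints first.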
